A study of Mus musculus with 39 samples.

Results

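Mouse mitochondrial DNA carries 37 annotated genes in GENCODE M21 on the mm10 build: 13 protein-coding, 2 rRNA and 22 tRNA genes. The members were chosen by position alone, as every row of the counts whose identifier lies on that molecule, and all 37 of them are among the 55401 genes counted. RNA was sequenced from 39 libraries of astrocytes of male mice, taken from tissue punches with magnetic beads against ACSA-2, a surface epitope of astrocytes. Controls, and mice classed as susceptible or resilient after chronic social defeat, a procedure of repeated exposure to an aggressor, were compared in tissue labelled NAc (nucleus accumbens; 7 control, 8 susceptible and 7 resilient libraries) and PFC (read here as prefrontal cortex; 6, 6 and 5). The protocol text names NAc punches for every library, so the region of the libraries labelled PFC rests on their tissue label. No genetic change is named for any group, and the sources used here give neither strain nor age. Each library has a mouse number of its own, and whether NAc and PFC libraries share mice is not settled by the labels.

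Mitochondria keep a small circular genome of their own, which is copied and read inside the organelle by nuclear-encoded proteins. Both strands are transcribed into long precursors, in which tRNAs lie between most of the longer genes and mark the places where the precursor is cut. The protein genes encode core subunits of respiratory complexes I, III and IV and of the ATP synthase, and the rRNA and tRNA genes serve the ribosomes that translate them. Astrocytes combine active glycolysis with respiration in these organelles. Because rRNA, tRNA and messenger start from shared precursors, their levels can be read side by side.

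The libraries held 941450 to 37339379 gene counts with a median of 11264270, and the shallowest were NAc control replicate 3 (941450), PFC susceptible replicate 6 (1222948) and PFC resilient replicate 3 (1603943). Counts cover whole gene spans with introns. A background cover was therefore taken from 1479 chemosensory receptor genes, which are silent in most tissues, as a percent of the cover expected if every count were spread evenly along the genes; it ran from 13.4% to 81.1%. All 12 astrocyte markers had counts in every library, and so did all 10 neuron and all 10 oligodendrocyte markers. The summed astrocyte markers ran from 1580 to 16312 CPM, counts scaled to a common library total. In bulk RNA, fewer cells of a type and less RNA per cell cannot be told apart. A difference in the share of mitochondrial counts likewise cannot be told apart from a difference in all other RNA of the library.

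A stretch of chromosome 1 repeats part of mitochondrial DNA almost letter for letter, and its annotated pseudogenes match all or part of 7 coding members. The sequence between those pseudogenes was not compared. GENCODE M21 places 7 pseudogenes in that stretch on the minus strand, chr1:24611535-24616197. They match, in the order of mitochondrial DNA, the end of mt-Co1 (Gm29216), mt-Co2 (Gm28661), mt-Atp6 (Gm10925), mt-Co3 (Gm28437), mt-Nd3 (Gm28438), mt-Nd4l (Gm10222) and the first 876 bases of mt-Nd4 (Gm28439). Gm10925 equals bases 1 to 678 of mt-Atp6 (chrM:7927-8607), a subunit of the ATP synthase, with 0 mismatches. The starts of both genes are printed below beside mt-Cytb (chrM:14145-15288), the complex III subunit, which shares none of its 50-base windows with another transcript of the annotation. The capitals mark the first codon, and sequences run 5′ to 3′ as in the GENCODE M21 transcripts.
mt-Atp6: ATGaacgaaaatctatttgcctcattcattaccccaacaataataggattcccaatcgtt
Gm10925: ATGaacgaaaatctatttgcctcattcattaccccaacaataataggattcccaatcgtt
mt-Cytb: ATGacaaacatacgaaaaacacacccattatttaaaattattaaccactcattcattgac
Gm28439, Gm10222, Gm28437 and Gm28661 also matched with 0 mismatches and Gm28438 with 1. Gm29216 differed from mt-Co1 (chrM:5328-6872), the catalytic subunit of complex IV, at 6 of 492 bases. All 6 lie in the first 13 bases compared, and the next 479 are identical. The capitals mark those differences, in bases 1054 to 1113 of mt-Co1 and the first 60 bases of the copy.
mt-Co1: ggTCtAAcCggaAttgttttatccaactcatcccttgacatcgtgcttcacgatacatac
Gm29216: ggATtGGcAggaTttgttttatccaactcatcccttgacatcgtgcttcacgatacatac

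The genes copied nearly whole stood far below their neighbours on the same molecule. Of all windows of 50 bases, those also found in another annotated transcript were 100% for mt-Co2, 99.9% for mt-Co3, 99.5% for mt-Atp6, 98.8% for mt-Nd4l and 98.0% for mt-Nd3. The shares were 62.2% for mt-Nd4, 51.1% for mt-Co1, 8.19% for mt-Nd2, 7.61% for mt-Nd5 and 1.04% for mt-Rnr2, and 0% for mt-Nd1, mt-Nd6, mt-Cytb, mt-Atp8 and mt-Rnr1. In FPKM, the deposited counts per gene length and library total, the median over 39 libraries was 486 for mt-Cytb and 460.0 for mt-Co1. The complex I subunits mt-Nd1, mt-Nd6, mt-Nd2, mt-Nd5 and mt-Nd4 lay at median FPKM of 293, 282, 271, 268 and 171. The complex IV subunits mt-Co2 and mt-Co3 lay at 10.8 and 1.92 FPKM, and the complex I subunits mt-Nd3 and mt-Nd4l at 13.9 and 3.21 FPKM. For the ATP synthase subunits the medians were 2.89 FPKM for mt-Atp6 and 1.79 FPKM for mt-Atp8. mt-Atp8 lies between mt-Co2 and mt-Atp6 and overlaps the latter, and no pseudogene is annotated at its place in the chromosome 1 stretch, so its windows there were not compared. These 6 genes together held 0.402% to 4.31% of the coding counts, while the other 7 held nearly all. The sources used here do not say how reads that match both places were counted, and its part in these levels was not tested. The levels of the 5 genes copied nearly whole are therefore uncertain, and so in part are those of mt-Nd4 and mt-Co1. Below, these 5 and mt-Atp8, which was placed with them by its position only, are called the 6 block genes and are described apart from the other 7 coding genes.

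**Figure D1:**
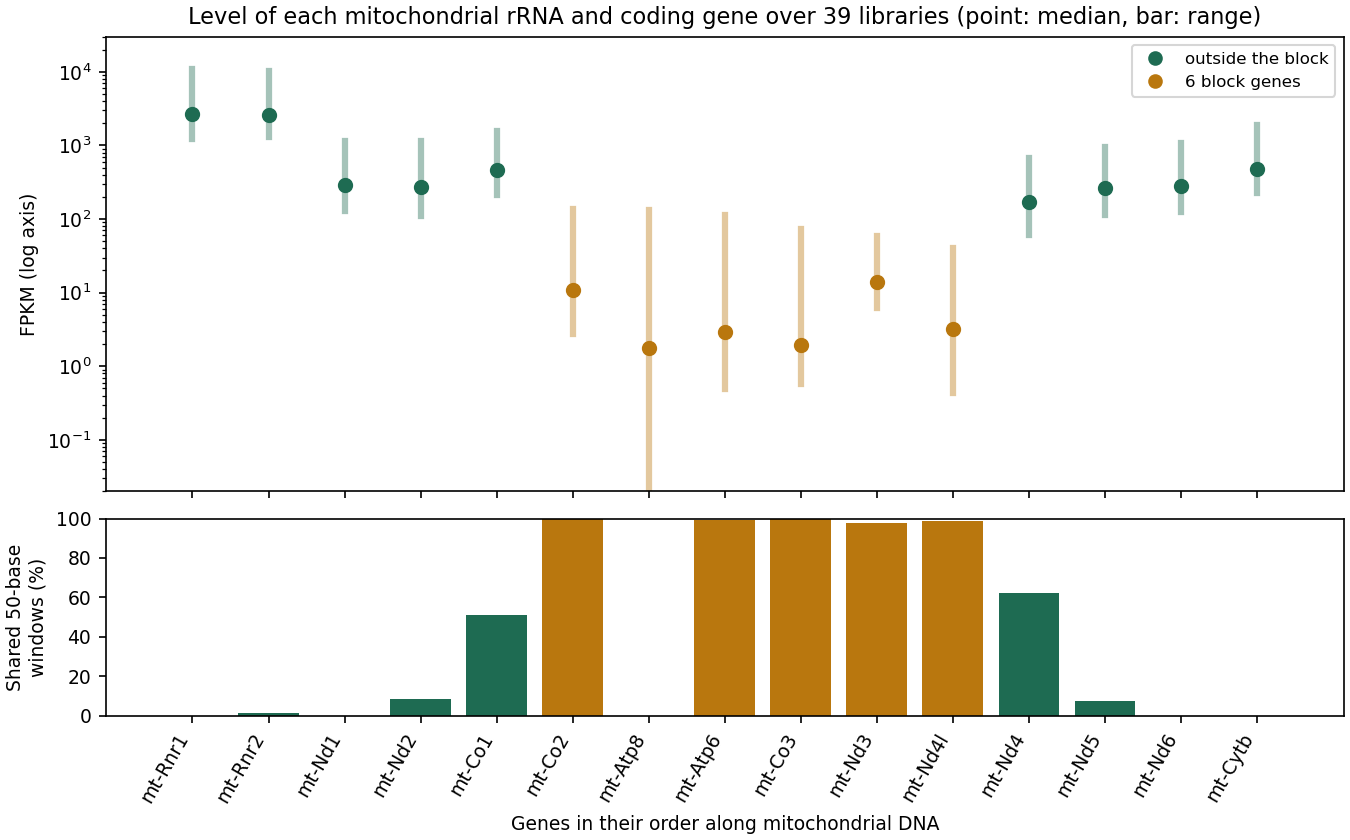
FPKM of the 2 rRNA and 13 coding genes on a log axis in their order along mitochondrial DNA (point: median of 39 libraries; bar: lowest to highest; the bar of mt-Atp8 reaches the lower edge because it is at 0 in some libraries), above the percent of their 50-base windows found in another transcript. Medians of 171 to 486 FPKM in 7 coding genes stand beside 1.79 to 13.9 FPKM in the 6 block genes.

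The 2 rRNA genes were among the most abundant genes of every library. mt-Rnr1, the RNA of the small ribosomal subunit (chrM:70-1024), ran from 1222 to 10792 FPKM with a median of 2651. mt-Rnr2, that of the large subunit (chrM:1094-2675), ran from 1285 to 10239 FPKM with a median of 2596. Both ranked between place 2 and place 4 among all genes by FPKM in each of the 39 libraries. mt-Cytb ranked at place 13 and mt-Co1 at place 14 in the median library. Against the background cover, the lowest ratio of any library was 439.9 for mt-Cytb and 121 for mt-Nd4. The block genes stood closer to the cover. mt-Co3 exceeded 3 times the cover in 27 of 39 libraries, mt-Atp8 in 28, mt-Atp6 in 34 and mt-Nd4l in 37, and mt-Co2 and mt-Nd3 did so in all 39.

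The mix of coding transcripts was steadier than their sum. mt-Co1 made up 22.9% to 29.9% of the coding counts of a library, mt-Cytb 19.5% to 21.7% and mt-Nd5 14.8% to 19.3%. mt-Nd1 ranged from 9.06% to 12.4%, mt-Nd2 from 9.19% to 13.2% and mt-Nd4 from 6.63% to 9.60%. mt-Nd6, annotated on the strand opposite to all other coding genes, ranged from 4.33% to 6.48%. The highest share was 1.11 times the lowest for mt-Cytb and 1.31 times for mt-Co1. The sum of the coding genes as a share of all counts differed 8.31-fold between its lowest and highest library. Among the block genes, the share of the coding counts differed 3.17-fold for mt-Nd3, 14.1-fold for mt-Co2 and 77.0-fold for mt-Atp6.

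The share of all counts that fell on the 13 coding genes overlapped between all groups. In NAc the lowest, median and highest library stood at 0.217%, 0.341% and 0.553% in controls, 0.124%, 0.252% and 0.381% in susceptible and 0.125%, 0.188% and 0.468% in resilient mice. The means were 0.344 ± 0.114%, 0.259 ± 0.0973% and 0.239 ± 0.127% (SD; n = 7, 8 and 7). Controls were thus higher on average in NAc, and the defeated groups lay on each other. In PFC the lowest, median and highest were 0.163%, 0.262% and 0.627% in controls and 0.168%, 0.325% and 0.869% in susceptible mice, and the 5 resilient libraries stood at 0.613%, 1.03%, 0.671%, 0.162% and 0.216%. The PFC means were 0.345 ± 0.200%, 0.431 ± 0.291% and 0.538 ± 0.356% (SD; n = 6, 6 and 5). Every PFC group held high and low libraries: replicates 1 and 2 were the highest 2 of the controls and of the susceptible group, and replicates 1, 2 and 3 the highest 3 of the resilient group. In same-numbered PFC libraries the share was higher in susceptible than control mice in 5 of 6 pairs, with ratios of 0.660 to 1.64, and higher in resilient than control mice in 3 of 5 pairs, with ratios of 0.978 to 2.64. No test was run on this summed share, and the labels do not say what same-numbered libraries have in common.

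**Figure D2:**
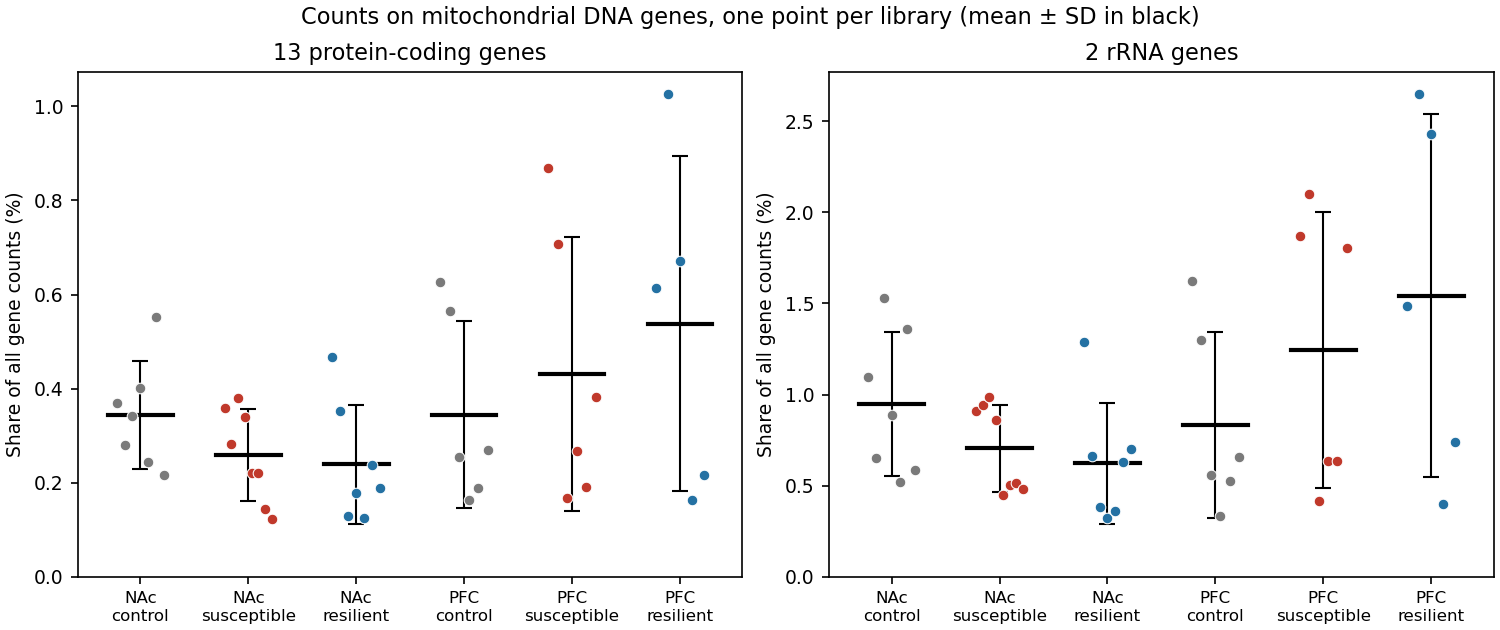
Share of all gene counts (percent) on the 13 coding genes (left) and the 2 rRNA genes (right), with 1 point per library and the mean ± SD in black, for the 6 groups. The groups overlap in both panels, and the PFC groups spread over the widest range, from 0.162% to 1.03% for the coding genes.

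The rRNA share followed the same order of group means. In NAc it was 0.948 ± 0.395% in controls, 0.705 ± 0.237% in the susceptible and 0.622 ± 0.334% in the resilient group (SD; n = 7, 8 and 7). The PFC values in that order were 0.833 ± 0.508%, 1.24 ± 0.757% and 1.54 ± 0.996% (n = 6, 6 and 5). Counts on rRNA exceeded those on coding genes 1.80-fold to 4.71-fold, with a median of 2.58. This ratio was highest in the shallowest library of 4 of the 6 groups and lowest in the deepest library of 4 of the 6. The part of depth in it was not tested, and the labels do not describe a step that removes rRNA.

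The background cover differed between the groups as well. In NAc it averaged 53.2% in controls, 56.0% in the susceptible and 64.6% in the resilient group, and in PFC 50.5%, 46.8% and 47.3%. The library with the highest cover had the lowest coding share in 3 of the 6 groups, and the library with the lowest cover had the highest share in 3. A measure added after the data were seen divided the coding counts by a library total lowered by its background percent. The coding counts themselves were not lowered. By this measure the NAc coding share averaged 0.748% in controls, 0.585% in the susceptible and 0.673% in the resilient group. The resilient group then lay above the susceptible group, against the order of the plain share. In PFC the same measure averaged 0.667%, 0.749% and 0.985%. Markers moved too: the median of summed astrocyte markers was, in NAc, 5042 CPM in controls, 4665 in the susceptible and 3084 in the resilient group, that of oligodendrocyte markers 1907, 1227 and 775 CPM, and that of neuron markers 843, 808 and 903 CPM. In the same PFC groups the astrocyte medians were 4905, 8533 and 6190 CPM, the oligodendrocyte medians 1212, 974 and 1498 CPM and the neuron medians 1268, 998 and 1120 CPM. The part of these cells in the mitochondrial share was not tested.

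**Figure D3:**
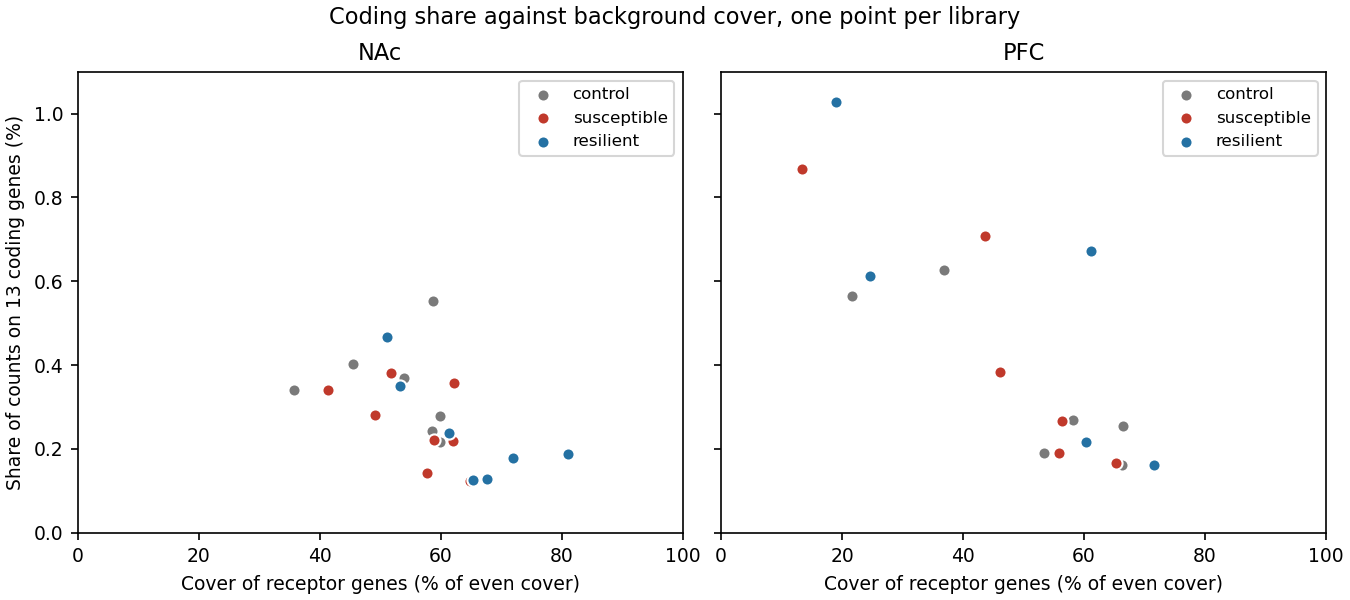
Share of counts on the 13 coding genes (percent) against the cover of chemosensory receptor genes (percent of an even cover), with 1 point per library, for NAc (left) and PFC (right). The highest shares, 1.03% and 0.869%, belong to PFC libraries with the lowest 2 covers.

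In NAc, susceptible mice were first set against controls. All coding genes tested leaned lower in susceptible mice, and none was called. mt-Cytb stood at 256, 520.3 and 759.8 CPM in the lowest, median and highest susceptible library and at 428, 677 and 1116 CPM in controls. Its log2 fold change was -0.48 ± 0.36 (SE). mt-Co1 stood at 359.6, 636 and 1020.0 CPM against 573, 987 and 1433 CPM in controls. The control libraries were higher on average for both genes, and the groups overlapped over much of their range.

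Complex I genes did likewise in that comparison, with log2 fold changes of -0.44 ± 0.39 for mt-Nd1, -0.50 ± 0.37 for mt-Nd2, -0.49 ± 0.38 for mt-Nd4, -0.50 ± 0.35 for mt-Nd5 and -0.53 ± 0.34 for mt-Nd6. mt-Co1 had -0.52 ± 0.35. The 7 coding genes outside the block thus lay between -0.53 and -0.44. The rRNA genes stood at -0.51 ± 0.37 for mt-Rnr1 and -0.53 ± 0.36 for mt-Rnr2. The block genes scattered more, from -0.89 ± 0.54 for mt-Co3 to -0.32 ± 0.54 for mt-Co2, with mt-Atp6 at -0.42 ± 0.59. Of the 12 coding genes that passed the count filter (mt-Atp8 did not), 12 had a negative value with a median of -0.50, against -0.00 over all genes tested. By edgeR 0 were called, as were 0 of 35943 genes (0%), and 0 of 12 had an unadjusted p under 0.05, against 1086 genes or 3.02%. DESeq2 also called 0.

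Resilient against control mice in NAc gave values below 0 for the 7 genes outside the block and values from -0.25 to 0.06 for the block genes, and none was called. In resilient libraries mt-Cytb stood at 260.3, 398 and 960.0 CPM (lowest, median, highest) and mt-Co1 at 323, 473 and 1222 CPM. Both medians lay below those of the controls, and the ranges overlapped. The log2 fold changes were -0.57 ± 0.37 (SE) for mt-Cytb, -0.68 ± 0.36 for mt-Co1, -0.70 ± 0.36 for mt-Nd6, -0.66 ± 0.36 for mt-Nd5, -0.59 ± 0.40 for mt-Nd4 and -0.46 for both mt-Nd1 and mt-Nd2. mt-Rnr2 stood at -0.72 ± 0.38 and mt-Rnr1 at -0.63 ± 0.39. mt-Co2, mt-Atp6 and mt-Co3 each stood at 0.06, with standard errors of 0.56, 0.60 and 0.53. The block genes mt-Nd3 and mt-Nd4l stood at -0.25 ± 0.37 and -0.20 ± 0.45. Of 12 coding genes tested, 9 had a negative value with a median of -0.46, against 0.01 over all genes. By edgeR and DESeq2 0 were called of 35943 genes (0%), the smallest adjusted p of a coding gene by edgeR was 0.756, and 0 of 12 had an unadjusted p under 0.05, against 6.14% of all genes. With the background cover as a covariate the median was -0.14. With the replicate number as a block it was -0.53. There 3 of 12 had an unadjusted p under 0.05 by edgeR, against 3263 of 35943 genes. Leaving out 1 library gave 0 to 7 coding genes under that limit, and 0 were called. The 10 oligodendrocyte markers had a median of -1.14 in that comparison and -0.82 in susceptible mice, and their part was not tested.

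Susceptible and resilient mice in NAc differed little in these genes. The 7 genes outside the block had a median log2 fold change of 0.11, from -0.04 to 0.17, and the 5 block genes tested one of -0.38, from -0.96 to -0.26. Over all 12 the median was -0.01. It was 0.21 with the replicate number as a block, 0.33 without NAc resilient replicate 1 and -0.28 with the background cover as a covariate. With that covariate 3 of 12 had an unadjusted p under 0.05, against 757 of 35943 genes. Of the 35943 genes tested 0 were called by edgeR (0%), and 0 of 12 coding genes had an unadjusted p under 0.05, against 2.9% of all genes. The medians of mt-Rnr2 were 4319 CPM in susceptible and 3963 CPM in resilient libraries, within ranges of 2829 to 6229.9 and 2034 to 7846 CPM.

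**Figure D4:**
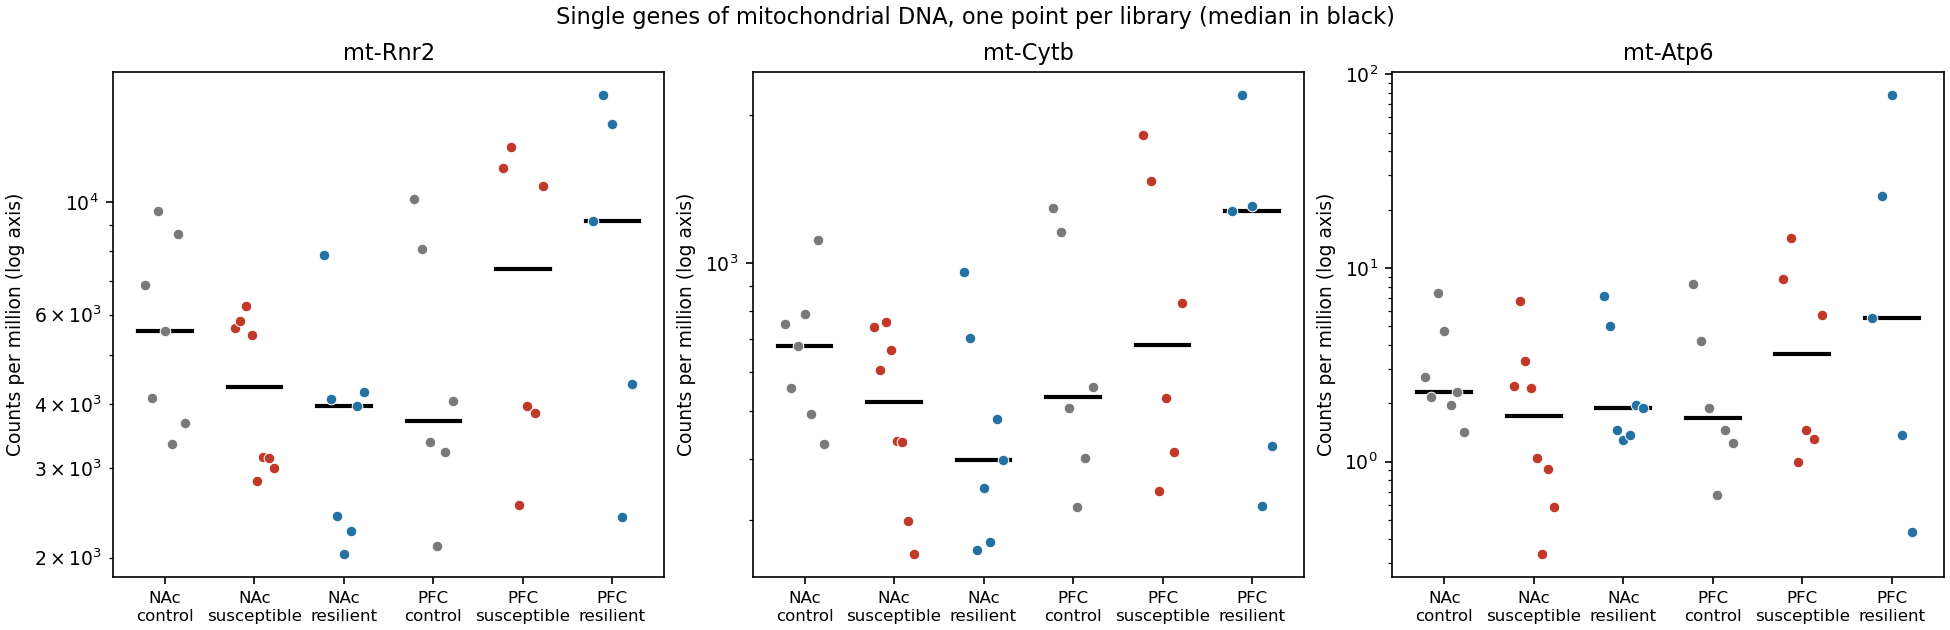
CPM of mt-Rnr2, mt-Cytb and mt-Atp6 on log axes, with 1 point per library and the group median in black. Groups overlap for all 3 genes, and for mt-Atp6 PFC resilient replicate 3 stands alone at 77.9 CPM.

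In PFC the coding genes leaned the other way, higher in susceptible than control mice, and none was called. mt-Cytb stood at 343, 681 and 1824 CPM (lowest, median, highest) in susceptible and 319, 534 and 1294 CPM in control libraries. mt-Co1 stood at 415, 892 and 2110.3 CPM against 389.7, 661 and 1468 CPM. The susceptible group reached higher in its upper libraries, while the lowest libraries of both groups lay side by side. The log2 fold changes were 0.43 ± 0.60 (SE) for mt-Cytb, 0.43 ± 0.58 for mt-Co1, 0.37 ± 0.60 for mt-Nd1, 0.42 ± 0.60 for mt-Nd6 and 0.60 ± 0.59 for mt-Rnr2. All 13 coding genes had a positive value, with a median of 0.40 against -0.01 over all genes, and 0 were called by edgeR or DESeq2 among 32167 genes (0%). At an unadjusted p under 0.05 there were 0 of 13, against 0.482% of all genes. With the replicate number as a block, which treats same-numbered PFC libraries as pairs, the median was 0.33. The sign of the coding values turned without PFC susceptible replicate 1, which had the highest share of its group and the lowest background cover of all libraries, 13.4%: the median was then -0.11, mt-Cytb stood at -0.10, mt-Co1 at -0.05, mt-Nd1 at -0.15 and mt-Nd6 at -0.11, while mt-Rnr2 stood at 0.29. Without its same-numbered control, PFC control replicate 1, which had the highest share of the controls, the median was 0.72.

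Resilient against control mice in PFC gave positive values in all 13 coding genes, from 0.49 for mt-Nd3 to 3.51 for mt-Atp8, and none was called. The 5 resilient libraries stood at 1277, 2199.9, 1307, 319.6 and 424 CPM for mt-Cytb and at 1548, 2458, 1535, 389 and 581 CPM for mt-Co1. Replicates 1, 2 and 3 thus lay near or above the highest control value, and the others below the control medians. The log2 fold changes were 0.76 ± 0.63 (SE) for mt-Cytb, 0.72 ± 0.61 for mt-Co1, 0.75 ± 0.62 for mt-Nd1, 0.76 ± 0.62 for mt-Nd6 and 0.94 ± 0.62 for mt-Rnr2.

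mt-Atp6 stood at 5.51, 23.5, 77.9, 1.38 and 0.432 CPM in the 5 PFC resilient libraries, against 0.673, 1.68 and 8.27 CPM (lowest, median, highest) in PFC controls. Its log2 fold change was 2.92 ± 1.08 (SE), and those of mt-Atp8 and mt-Co3 were 3.51 ± 1.22 and 2.62 ± 1.00. PFC resilient replicate 3, the third shallowest library, held the highest value of each of these 3 genes, with 27.4 CPM for mt-Atp8 and 57.4 CPM for mt-Co3. Without it mt-Atp6 stood at 1.63. mt-Co2 was also highest there, at 94.1 CPM against 43.8 CPM in the next resilient library. Of the 13 coding genes 0 were called by edgeR or DESeq2, as of 32167 genes (0%). At an unadjusted p under 0.05 there were 3 of 13 by edgeR, namely mt-Atp8, mt-Atp6 and mt-Co3, against 0.597% of all genes. With the replicate block there were 6 of 13, and 624 of 32167 genes in all, and leaving out 1 library gave 0 to 5 of 13. The median over the 13 genes was 0.80, against -0.02 over all genes, and it was 0.31 without PFC resilient replicate 2.

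Susceptible against resilient mice in PFC gave negative values for all 13 coding genes, with a median of -0.40. The 7 genes outside the block lay between -0.45 and -0.29, and mt-Co3 had the most negative value, -2.43 ± 1.02. By edgeR and DESeq2 0 were called of 32167 genes (0%), and 1 of 13, mt-Co3, had an unadjusted p under 0.05, against 0.572% of all genes. With the replicate block 0 of 13 did, against 502 of 32167 genes. The median was 0.06 without PFC resilient replicate 2.

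NAc and PFC libraries of control mice had like levels of these genes. The medians were 677 CPM in NAc and 534 CPM in PFC for mt-Cytb, 987 and 661 CPM for mt-Co1, and 5573 and 3716 CPM for mt-Rnr2, and the PFC ranges enclosed most of the NAc libraries. All 13 coding genes had a fitted value below 0, with a median of -0.16 log2 for NAc over PFC, but the median was 0.24 with the background cover as a covariate and 0.27 with the replicate number as a block. By edgeR 0 of 13 were called and 0 had an unadjusted p under 0.05. Over all 38171 genes 1 was called (0.00262%), Crym, which encodes mu-crystallin, and 5.04% had an unadjusted p under 0.05. Here DESeq2 called 81 genes in all and 0 of the 13.

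Among the defeated mice, NAc libraries leaned lower than PFC libraries in every coding gene, and again none was called. In susceptible mice mt-Cytb ran from 256 to 759.8 CPM in NAc and from 343 to 1824 CPM in PFC, a log2 fold change of -1.08 ± 0.49 (SE). In resilient mice it ran from 260.3 to 960.0 CPM in NAc and from 319.6 to 2199.9 CPM in PFC, with -1.52 ± 0.53. The ranges overlapped at the low end, and the highest values were those of PFC libraries. In susceptible mice mt-Co1 had -0.97 ± 0.48, mt-Nd1 -1.04 ± 0.50 and mt-Rnr2 -1.04 ± 0.48. In resilient mice mt-Co1 had -1.43 ± 0.52, mt-Nd6 -1.55 ± 0.52 and mt-Rnr2 -1.58 ± 0.52. The block gene mt-Atp6 had -2.96 ± 0.88 in resilient mice, and -1.74 without PFC resilient replicate 3.

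By edgeR 0 of 13 coding genes were called between regions in susceptible mice, against 1 of 38171 genes (0.00262%), Acta2, the smooth muscle actin. At an unadjusted p under 0.05 there were 8 of 13 coding genes, all with values below 0, against 6.23% of all genes, and in resilient mice 12 of 13, against 14.6%. In resilient mice edgeR called 0 of 38171 genes (0%), and the smallest adjusted p of a coding gene was 0.281, that of mt-Atp6. DESeq2 called 5 genes in susceptible and 55 in resilient mice, and 0 of the 13 coding genes in either. Leaving out 1 library gave 0 to 2 genes called by edgeR in susceptible and 0 to 85 in resilient mice. The medians over the 13 genes were -1.08 in susceptible and -1.54 in resilient mice, against 0.03 and 0.06 over all genes. With the background cover as a covariate, which in resilient mice averaged 64.6% in NAc and 47.3% in PFC, they were -0.29 and -0.52. Under that covariate 0 and 3 of 13 had an unadjusted p under 0.05, against 1416 and 1069 of 38171 genes. In susceptible mice it was 1 of 13 with the replicate block (median -0.49) and 0 by limma, against 1633 and 3314 of 38171 genes. There it was 11 by DESeq2 and 12 with consecutive sample numbers as pairs (median -0.96), against 2826 and 3009 of all genes. It was 0 to 11 there when 1 library was left out. In resilient mice it was 4 of 13 with consecutive sample numbers as pairs (median -0.87) and 8 by limma, against 1353 and 7427 genes. There it was 13 by DESeq2 and 13 with the replicate block (median -1.30), against 6417 and 5455 of all genes. It was 3 to 13 there when 1 library was left out. Some cell type markers also had values below 0 in the same fits. The median log2 fold change of the 12 astrocyte markers was -0.82 in susceptible and -1.22 in resilient mice. That of the 4 erythrocyte markers, of which 1 had counts in every library, was -2.31 and -3.43. Other lists differed: ependymal and choroid markers summed to means of 61.2 CPM in NAc and 46.5 in PFC in susceptible mice, and 55.1 and 39.5 CPM in resilient mice. Oligodendrocyte markers summed to 1421 and 1186 CPM in susceptible and 1076 and 1304 CPM in resilient mice. The part of these cells in the mitochondrial values was not tested.

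**Figure D5:**
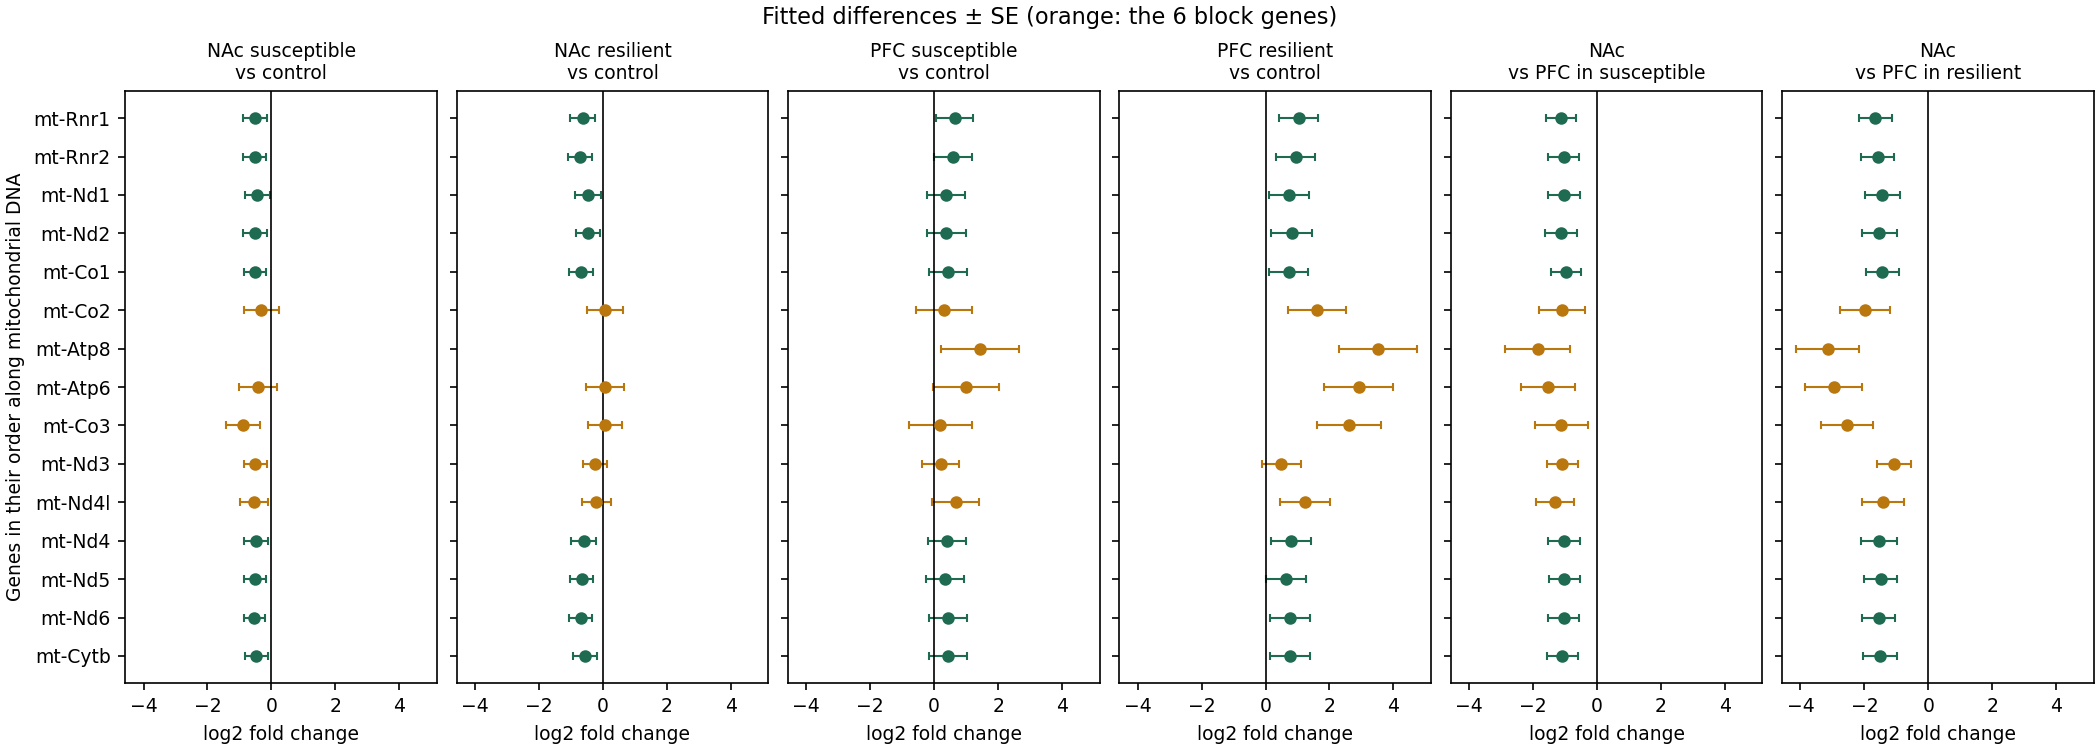
Fitted log2 fold change ± SE of the 2 rRNA and 13 coding genes in 6 comparisons, in gene order (orange: the 6 block genes). In each panel the other genes fall on nearly the same value, about -0.5 in NAc against controls and -1.5 for NAc against PFC in resilient mice, while mt-Atp8, mt-Atp6 and mt-Co3 spread; 0 coding genes were called.

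Whether defeat moved these genes differently in the 2 regions was tested as the difference of each effect, NAc minus PFC. The susceptible effect differed by -0.87 ± 0.71 log2 (SE) for mt-Cytb and by -1.08 ± 0.70 for mt-Rnr2. The resilient effect differed by -1.31 ± 0.74 for mt-Cytb, -1.44 ± 0.73 for mt-Nd6 and -1.62 ± 0.73 for mt-Rnr2. All 13 coding genes had a negative value in both, with medians of -0.87 and -1.38 against 0.05 and 0.07 over all genes. By edgeR and DESeq2 0 of 38171 genes were called in either (0%). At an unadjusted p under 0.05 edgeR had 0 of 13 for the susceptible effect, against 1.38% of all genes, and 3 of 13 for the resilient effect, against 3.45%; the 3 were mt-Atp8, mt-Atp6 and mt-Co3. For the resilient effect it was 11 of 13 with the replicate block, against 2675 of 38171 genes. With the background covariate it was 1, against 943 genes, and without the 3 libraries of lowest total 0, against 1120 of 39266. Leaving out 1 library gave 0 to 10. The medians were -0.53 and -0.77 with that covariate, and the susceptible one was -0.40 without PFC susceptible replicate 1.

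The 22 tRNA genes, of 59 to 75 bases, were counted thinly. Together they held 0.00265% to 0.0255% of the counts. The 4 with the highest mean count carry valine (mt-Tv), glutamate (mt-Te), methionine (mt-Tm) and leucine (mt-Tl1). They are shown whole, in the sense of the gene, with the anticodon in capitals, because they are the best counted members of their kind.
mt-Tv: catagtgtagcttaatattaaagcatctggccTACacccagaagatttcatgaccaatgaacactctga
mt-Te: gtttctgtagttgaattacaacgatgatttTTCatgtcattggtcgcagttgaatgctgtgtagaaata
mt-Tm: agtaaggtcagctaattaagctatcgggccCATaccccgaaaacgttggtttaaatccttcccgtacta
mt-Tl1: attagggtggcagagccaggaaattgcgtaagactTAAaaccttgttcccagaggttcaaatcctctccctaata
The mean count per library was 154 for mt-Tv, which lies between the 2 rRNA genes, 94.0 for mt-Te, 82.8 for mt-Tm and 81.3 for mt-Tl1, which follows mt-Rnr2. At the other end, mt-Td and mt-Tk had a median of 2 counts, and mt-Tk was at 0 in 14 of 39 libraries. Both lie beside mt-Co2 on mitochondrial DNA. Like mt-Ts1, mt-Tg and mt-Tr, they lie between genes that are copied on chromosome 1. The chromosome 1 sequence at their places was not compared, so the levels of these tRNA genes are uncertain too. The part of such copies in their low counts was not tested.

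mt-Tv stood at 4.98, 13.6 and 22.3 CPM (lowest, median, highest) in NAc control, 4.07, 9.07 and 31.8 CPM in susceptible and 3.10, 6.21 and 18.9 CPM in resilient libraries. In PFC it stood at 3.58, 9.05 and 48.6 CPM in control and 4.29, 17.0 and 59.7 CPM in susceptible libraries, and at 26.4, 64.6, 66.1, 6.89 and 8.06 CPM in the resilient ones. Within each region the order of the medians is that of the coding share, and the groups overlap. In NAc, all 20 tRNA genes tested had negative values against controls in both defeated groups, with medians of -0.50 in susceptible and -0.43 in resilient mice. In PFC 17 of 19 were positive in susceptible mice (median 0.31) and 19 of 19 in resilient mice (median 0.64). Between regions, 21 of 21 were negative for NAc over PFC in susceptible and in resilient mice, with medians of -0.93 and -1.30, and 16 of 21 in controls, with -0.15. By edgeR 0 tRNA genes were called in any of the 11 comparisons. These tallies do not set apart the tRNA genes that lie between genes copied on chromosome 1.

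Nuclear genes that serve mitochondrial DNA were read from the same fits, and none was called. Polrmt, the polymerase that transcribes mitochondrial DNA, averaged 9.50 ± 1.81 CPM in NAc controls, 10.6 ± 1.73 CPM in the susceptible and 8.69 ± 2.40 CPM in the resilient NAc group (SD; n = 7, 8 and 7). Tfam, which packages and activates that DNA, averaged 9.94 ± 2.28 CPM in NAc controls (n = 7) and 10.3 ± 1.98 and 11.1 ± 2.12 CPM in the defeated groups. Lrpprc, which stabilises mitochondrial messengers, averaged 58.1 ± 6.55 CPM in controls and 59.2 ± 3.31 and 61.6 ± 5.38 CPM. These groups lay on each other for all 3 genes. In PFC resilient against control mice the log2 fold changes were -0.07 ± 0.31 (SE) for Polrmt, -0.32 ± 0.32 for Tfam and -0.05 ± 0.19 for Lrpprc. For NAc over PFC in susceptible mice they were, in that order, -0.40 ± 0.24, -0.29 ± 0.22 and -0.22 ± 0.13. In resilient mice they were -0.50 ± 0.26, 0.12 ± 0.25 and -0.17 ± 0.14.

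The pathway lists, written with earlier results of these data known, are given by counts and medians for NAc susceptible against control mice. Of 20 genes for transcription, upkeep and copying of mitochondrial DNA, 8 had a positive and 12 a negative value (median -0.06), with Top1mt at 0.18 ± 0.14 and Tfb2m at -0.18 ± 0.14. Of 30 genes for processing and modifying its RNA, 11 were positive and 19 negative (median -0.06), with the rRNA methylase Mrm3 at 0.36 ± 0.17 and the polymerase Mtpap, which adds poly(A), at -0.27 ± 0.16. Of 11 translation factors, 5 were positive and 6 negative (median -0.05), with the recycling factor Gfm2 at -0.31 ± 0.15 and the initiation factor Mtif2 at -0.25 ± 0.14. Of 8 nuclear regulators, 2 were positive and 6 negative (median -0.12), with the coactivators Ppargc1b at 0.23 ± 0.13 and Pprc1 at 0.21 ± 0.12. Of 77 ribosomal proteins, 31 were positive and 46 negative (median -0.04), with Mrpl45 at -0.32 ± 0.12 and Mrpl54 at 0.60 ± 0.25. By edgeR 0 genes of these lists were called in that comparison.

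The nuclear subunits that join the mitochondrially encoded ones in the respiratory complexes mostly had values of the same sign as most of those genes. In NAc susceptible against control mice 27 of 37 nuclear complex I subunits had a negative value (median -0.09), with Ndufs1 at -0.28 ± 0.17 and Ndufa10 at -0.17 ± 0.11. Of 34 subunits of complexes III, IV and V 25 did (median -0.14), with Uqcrc2 at -0.27 ± 0.18 and Atp5j at -0.24 ± 0.22. In resilient against control mice it was 35 of 37 (median -0.25) and 33 of 34 (median -0.36), with Ndufb9 at -0.59 ± 0.23, Ndufc1 at -0.58 ± 0.25, Uqcr11 at -0.59 ± 0.23 and Atp5h at -0.75 ± 0.30. In PFC they were positive in 32 of 37 and 33 of 34 in susceptible mice (medians 0.24 and 0.32) and in 35 of 37 and 34 of 34 in resilient mice (medians 0.25 and 0.34). For NAc over PFC in resilient mice all 37 and all 34 were negative, with medians of -0.60 and -0.87. Over all genes tested the medians were -0.00 and 0.01 in the 2 NAc comparisons, -0.01 and -0.02 in PFC and 0.06 between regions in resilient mice. By edgeR 0 of these subunits were called in any of the 11 comparisons. They were read without the background cover as a covariate, which averaged 64.6% in NAc and 47.3% in PFC resilient libraries. Astrocyte markers also had a median below 0 between those groups, and the part of cover or cells in the subunit values was not tested.

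The other lists in NAc resilient against control mice also had medians below 0. They were -0.11 for the 20 genes of transcription and upkeep, led by Mterf1b at -0.36 ± 0.20 and Mterf4 at -0.29 ± 0.17, and -0.13 for the 30 RNA processing genes, with Trnt1, which completes tRNA ends, at -0.55 ± 0.24 and Pde12 at -0.41 ± 0.22. The translation factors had -0.11, with Gfm2 at -0.42 ± 0.15 and Mtif2 at -0.29 ± 0.14. The regulators had -0.20, with Gabpa at -0.36 ± 0.17 and Esrra at -0.33 ± 0.17, and the ribosomal proteins -0.13, with Mrpl10 at -0.47 ± 0.18 and Mrpl28 at -0.65 ± 0.26. Between the regions in controls the medians of the 7 lists lay between -0.11 and 0.03. The leading members there were Exog (-0.32 ± 0.16), Polrmt (-0.37 ± 0.24), Lrpprc (-0.23 ± 0.14), Mrm2 (-0.32 ± 0.23), Mtif3 (-0.29 ± 0.20), Oxa1l (0.09 ± 0.21), Ppargc1b (-0.41 ± 0.16) and Pprc1 (-0.16 ± 0.16). Among ribosomal proteins and complex subunits they were Mrpl22 (0.43 ± 0.19), Mrpl38 (-0.42 ± 0.24), Ndufa11 (-0.43 ± 0.26), Atp5e (-0.33 ± 0.29) and Cox5a (-0.19 ± 0.20). None of them was called by edgeR.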

How the data were processed

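Bulk RNA-seq libraries of ACSA-2-selected astrocytes were grouped by their labels. The authors deposited whole-number counts per gene, made with featureCounts on mm10 per the submitters' processing notes; implied lengths equal the whole gene span for 54229 of 54229 genes with a matching version (relative tolerance 1e-06). The authors also deposited FPKM values of the same genes. For aligner, strand setting and read length: not given in the sources used here. Totals of 941450 to 37339379 counts set the precision, and intervals and errors cover the spread between libraries, which may be technical.

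Counts were tested with edgeR 4.0.16 in R 4.3.3 (TMM scaling, filterByExpr, robust quasi-likelihood test, Benjamini-Hochberg adjustment over all genes tested, threshold 0.05), with 1 fit per region for comparisons within it and 1 fit over all 39 libraries between regions. CPM uses the library total. Alternatives were DESeq2 1.42.0, limma 3.58.1 on log2(FPKM + 0.5), other scaling, filters and totals, a replicate block, consecutive sample numbers as pairs between regions, the background cover as a covariate, and libraries left out. A coding gene was set among the block genes where 70% or more of its 50-base windows occur in another transcript, and mt-Atp8 by position. The procedure was tested on simulated NAc counts, drawn independently and with the same spread for all genes. Because of that setting, the test does not measure error or power for the mitochondrial genes. Members and lists were chosen with earlier results of these data known. All members are named; of each other list the 2 genes with the smallest p are named for 3 comparisons, and Polrmt, Tfam and Lrpprc throughout. A gene that this rule names is not reported here. Crym and Acta2 lie outside that rule and were chosen after their values were seen.

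Same-numbered libraries deviated together in PFC, where all 6, 5 and 5 pairs of the 3 comparisons had correlations over 0.1 across genes (lowest 0.177). Fits that treat them as pairs, by a replicate block, are therefore given beside the main PFC fits, a choice that rests on these same data. The labels do not say what same-numbered libraries share, and the part of the background cover in these correlations was not tested. The values printed are those of the fit without the block, so their errors and p-values leave this pairing out. Blocked values stand beside results that they change. In NAc 5, 2 and 4 of 7 pairs had correlations over 0.1, and the numbers were not taken as pairs. The block was run in NAc and between regions as an alternative only.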

Additional observations from a re-analysis of the deposited data

Results flagged for a closer look

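Within groups of 4 to 10 libraries, 13 of 114 sets of values held a library far from the others (its gap to the nearest library, over the whole range, above the Dixon 95% limit). That limit is set for about 1 in 20 independent sets of normally spread values. The sets here overlap, as the rRNA share is made of mt-Rnr1 and mt-Rnr2, so their number cannot show an excess. NAc resilient replicate 1 stood apart for rRNA, with 1.29% of counts, 5050.0 CPM for mt-Rnr1 and 7846 CPM for mt-Rnr2. NAc control replicate 3, the shallowest library, had 4.49 rRNA counts per coding count.

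The remaining 9 concern genes of low count: mt-Co3, mt-Atp6 and mt-Nd4l, which are copied on chromosome 1, and mt-Atp8, which lies between mt-Co2 and mt-Atp6. PFC resilient replicate 3 held 27.4 CPM for mt-Atp8, 57.4 CPM for mt-Co3 and 11.8 CPM for mt-Nd4l. PFC control replicate 1 held 2.07 CPM for mt-Atp8, 7.24 CPM for mt-Co3 and 3.45 CPM for mt-Nd4l. NAc susceptible replicate 2 held 1.68 CPM for mt-Atp8 and 6.72 CPM for mt-Atp6, and PFC susceptible replicate 2 held 5.63 CPM for mt-Nd4l.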

How the results depend on the processing

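No coding gene was called in any comparison under any alternative run. The smallest adjusted p of a coding gene in any edgeR, DESeq2 or limma fit was 0.0533, for mt-Atp6 between NAc and PFC in resilient mice without PFC resilient replicate 4. In that comparison the median log2 fold change of the coding genes, -1.54, was -0.52 with the background cover as a covariate. Leaving out 1 library gave medians of -1.82 to -1.05 there, -0.62 to -0.29 for NAc susceptible against control mice, -0.80 to -0.23 for NAc resilient against control mice and 0.31 to 1.15 for PFC resilient against control mice. For PFC susceptible against control mice, leaving out 1 library gave values of -0.10 to 0.76 for mt-Cytb, -0.047 to 0.79 for mt-Co1, -0.15 to 0.77 for mt-Nd1 and -0.11 to 0.75 for mt-Nd6; the lowest are those without PFC susceptible replicate 1, and the cause was not tested. With the replicate block the medians were 0.33 and 0.70 in PFC susceptible and resilient mice against controls, and the block changed no call of a coding gene.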

Other observations

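The 7 pseudogenes on chromosome 1 together held 4.16 to 93.5 CPM, with a median of 10.7. Their sum averaged 14.1 CPM in NAc controls, 10.2 CPM in the susceptible and 11.3 CPM in the resilient NAc group. The PFC groups, in that order, averaged 16.6, 25.9 and 43.5 CPM. The highest library was PFC resilient replicate 3, a shallow one with 1603943 counts. That library also held the highest value of each of the 6 block genes.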
